A study of Bos taurus with 6 samples.

Results

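The genes described are MAGOH, RBM8A, CASC3, UPF1, UPF2, UPF3B and SMG1, which encode proteins of the exon junction complex and of nonsense-mediated mRNA decay. They were chosen by symbol: every probe of the array whose platform annotation carried 1 of these 7 symbols was taken, which gave 12 probes, and the 7 genes stand among 15197 symbols on the array. CASC3 and UPF3B had 3 probes each, RBM8A had 2 and the other genes had 1. All 7 symbols occur in RefSeq's table of bovine genes. The set was proposed when MAGOH's low ratio on these arrays was already known. The ratios of antagonist to control are therefore given as a description, and nothing is read from calls of the 7 genes.

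The exon junction complex is laid down by the spliceosome just upstream of the joined ends of exons and stays on the mRNA after export from the nucleus. Its core is the helicase EIF4A3, clamped on RNA by the MAGOH-RBM8A heterodimer, with CASC3 as a further core component. During translation a complex that remains downstream of a stop codon marks the mRNA for nonsense-mediated decay: UPF3B and UPF2 link it to the helicase UPF1, and the kinase SMG1 phosphorylates UPF1, which leads to decay of the mRNA. In Drosophila oocytes the orthologues of MAGOH, RBM8A and CASC3 are needed to bring oskar mRNA to its place in the egg. A growing oocyte stores mRNA for the time after transcription stops, so storage and decay shape what it carries.

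Oocytes came from 3 Holstein cows of 2nd parity, whose age is not given in the sources used here. In the control condition a cow received follicle-stimulating hormone every 12 h over 3 days, followed by 68 h of coasting, a period without that hormone. In the antagonist condition the same cow received the same stimulation and coasting, with the GnRH antagonist cetrotide throughout coasting; it blocks the pituitary receptor that drives luteinizing hormone secretion. The conditions were separated by a month or more, and their order is not given. Oocytes were collected by ovum pick-up and denuded mechanically, their RNA was amplified, and the number of oocytes in a pool is not given. Both RNAs of a cow were hybridised together on 2-colour arrays, once in each dye orientation, so that 6 arrays gave 3 replicates, 1 per cow. In such pooled material, a difference in which oocytes were collected and a difference in RNA per oocyte cannot be told apart.

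Of 43692 probes, 32527 were tested, and 20733 exceeded the negative controls in all 12 readings; 12312 genes had a tested probe, and the brightest probe stands for each gene below. Ratios are log2 values of antagonist over control, given as the mean over 3 cows with the SD. The cows differed in how far ratios spread over all genes: cow 1 had an SD over genes of 0.227, against 0.485 for cow 2 and 0.310 for cow 3. No probe of 32527 passed an adjusted p of 0.05 for antagonist against control (limma, 0% called). At an uncorrected p under 0.05 with at least 1.5-fold difference, 793 probes did. All 15 oocyte markers examined (GDF9, BMP15, ZP2, NLRP5 and others) were tested and 14 exceeded background in all 12 readings, with a summed level of 97238 to 107260 in antagonist and 94566 to 110247 in control channels. Single markers differed within that sum: 3 of the 15 were called higher without correction, NLRP5 (1.11 ± 0.35), MOS (0.90 ± 0.40) and ZP3 (0.60 ± 0.15). Of all genes, 2.76% were called higher and 0.601% lower. No marker was called lower, and mean ratios lay above 0 in 11 and below 0 in 4, the lowest at -0.35.

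MAGOH, the partner of RBM8A in the clamp, had the lowest ratio of the 7 genes. In cow 1 the ratio was -0.24 on the array with control in Cy5 and -0.29 on the array with antagonist in Cy5. In cow 2 these values were -1.61 and -1.42, and in cow 3 they were -0.964 and -0.996. All 6 arrays thus lay below 0, with cow 1 nearest to it and cow 2 farthest. The mean was -0.92 ± 0.63 (SD, n = 3 cows), a level 1.89-fold lower under antagonist, and 10 of 12312 genes had a lower mean. By percentile among all genes, MAGOH stood at 8.21 in cow 1, 0.301 in cow 2 and 0.187 in cow 3, so its rank in cow 3 was as low as in cow 2 although its ratio was smaller there.

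MAGOH's normalized log2 level in control oocytes was 11.16 and 11.06 in cow 1, 11.34 and 11.18 in cow 2, and 11.20 and 11.03 in cow 3. In antagonist oocytes it was 10.93 and 10.78 in cow 1, 9.73 and 9.76 in cow 2, and 10.24 and 10.04 in cow 3. The control channels lay close together (11.16 ± 0.083 over cows) whereas the antagonist channels were spread (10.24 ± 0.56), and the highest antagonist value lay just below the lowest control value. The order of the cows' mean levels ran from cow 2 antagonist (9.74) through cow 3 antagonist (10.14) and cow 1 antagonist (10.85) to the control levels of cow 1 (11.11), cow 3 (11.12) and cow 2 (11.26). The control levels of cows 1 and 3 differed by less than a cow's 2 arrays did. Of all genes, 1.48% had 6 antagonist levels below all 6 control levels; MAGOH was the 1 of the 7 that did, which the choice of the gene fixed in part.

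The raw spot means show the same. In control channels MAGOH's spot read 2233 and 2208 in cow 1, 2480 and 2512 in cow 2, and 2330 and 2281 in cow 3. In antagonist channels it read 2098 and 1695 in cow 1, 892 and 882 in cow 2, and 1299 and 1083 in cow 3. Every one of these 12 readings lay far above the limits of 170 to 247 set by the negative controls. Cow 2's ratio minus cow 1's was -1.25 ± 0.0762 (SE), and cow 3's lay between them, 0.54 above cow 2's. That SE reflects only the technical error between arrays of the same RNAs, and the difference is given as a description. The authors' deposited table gave MAGOH a mean of -0.91 ± 0.62 over the same arrays. A single probe carried the symbol, so no second probe can be set beside it.

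RBM8A (also called Y14), the RNA-binding-motif protein that pairs with MAGOH, had a ratio near 0 in cow 1 and a low one in cow 2. Its brightest probe gave 0.044 and 0.20 in cow 1, -1.33 and -1.14 in cow 2, and -0.49 and -0.33 in cow 3. The second probe gave 0.45 and -0.11 in cow 1, -1.11 and -1.62 in cow 2, and -0.16 and -0.84 in cow 3. On both probes the order of cows was that of MAGOH, cow 2 lowest and cow 1 highest, an order that 24.8% of all genes had. Unlike for MAGOH, cow 1 lay above 0 in the mean of either probe (0.12 and 0.17). The mean was -0.51 ± 0.68 for the brightest probe and -0.57 ± 0.77 for the other, SDs that exceed the means. The probes' means lay 0.0597 apart, against a median of 0.179 for 3005 genes with several tested probes.

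RBM8A's control level was 10.78 and 10.77 in cow 1, 11.24 and 11.13 in cow 2, and 10.90 and 10.94 in cow 3. Its antagonist level was 10.83 and 10.96 in cow 1, 9.91 and 9.99 in cow 2, and 10.41 and 10.61 in cow 3. The groups overlapped through cow 1, whose antagonist channels lay above its control channels, and cow 2 held both the highest control and the lowest antagonist level. Among all genes RBM8A's ratio stood at percentile 78.4 in cow 1, 1.02 in cow 2 and 5.81 in cow 3. Without cow 2 the mean was -0.15, and without cow 1 it was -0.82, so 1 cow decides its size.

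CASC3 (MLN51), which binds EIF4A3 and RNA in the core complex, varied little. Its brightest probe gave 0.18 and 0.19 in cow 1, 0.18 and 0.16 in cow 2, and -0.10 and -0.087 in cow 3, a mean of 0.088 ± 0.16. Control levels ran from 11.74 to 12.07 and antagonist levels from 11.89 to 12.00, so that the control range enclosed the antagonist range. The other probes were dimmer and gave -0.19 ± 0.22 and -0.0057 ± 0.11. The dimmer probe at -0.19 had its lowest values in cow 1 (-0.51 and -0.32), where the brightest probe had positive ones, and the range of the 3 means, 0.274, was larger than for 65.5% of genes with several tested probes. CASC3 therefore has no single direction on this array.

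The remaining core protein and a paralogue of MAGOH were outside the set and were looked up after their values were seen. EIF4A3, the helicase of the core, had ratios of -0.089 in cow 1, -0.32 in cow 2 and 0.16 in cow 3, a mean of -0.086 ± 0.24. MAGOHB, the near-identical paralogue of MAGOH, had -0.075 in cow 1, -0.40 in cow 2 and -0.19 in cow 3, a mean of -0.22 ± 0.16, negative on all 6 arrays. MAGOH and MAGOHB transcripts share much coding sequence, and whether either probe also binds the other transcript was not tested.

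**Figure D1:**
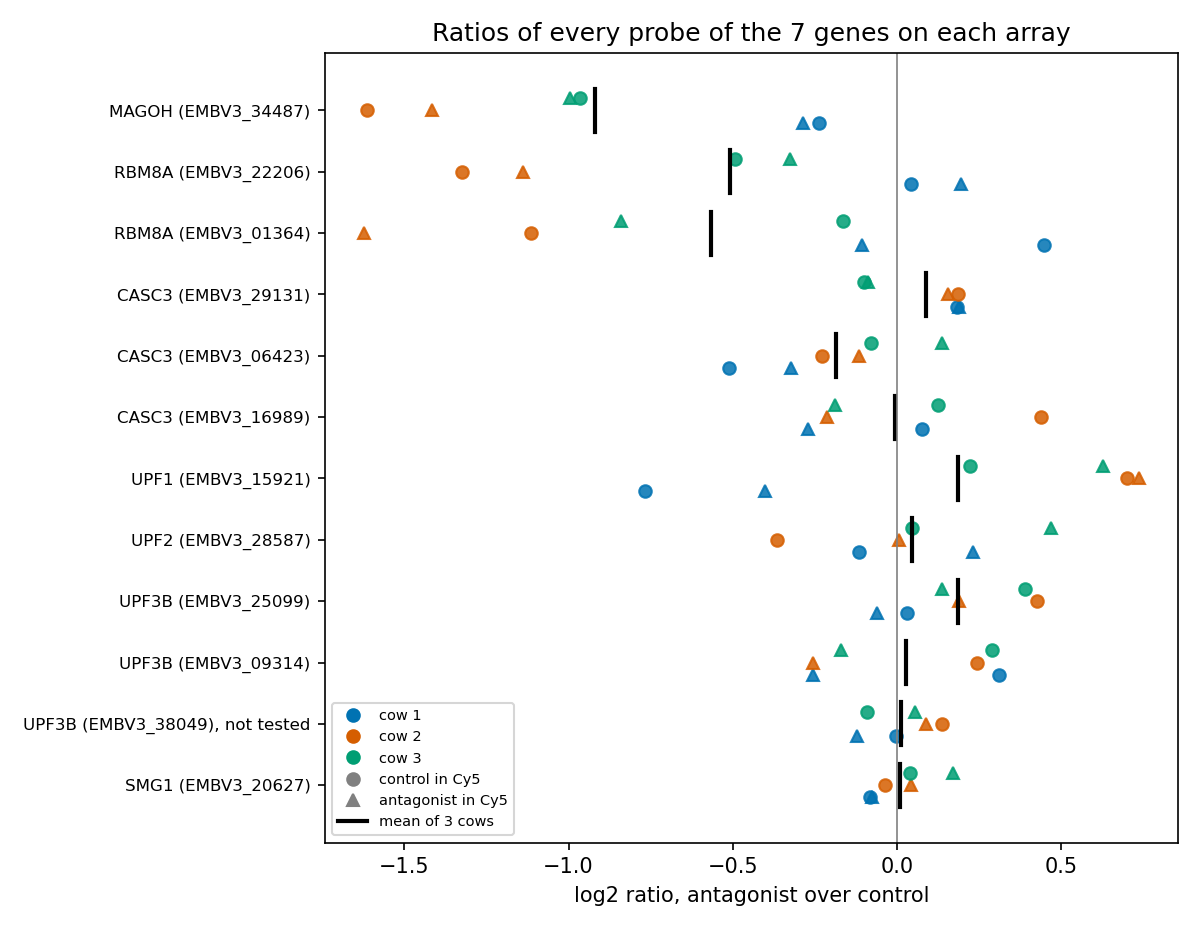
Ratio (log2, antagonist over control, horizontal axis) of each of the 12 probes on each of the 6 arrays; colours mark cows, circles arrays with control in Cy5, triangles arrays with antagonist in Cy5, and black lines the mean of 3 cows. MAGOH's 6 points lie below 0, RBM8A's and UPF1's spread to both sides by cow, and 1 dim probe each of CASC3 and UPF3B (EMBV3_16989 and EMBV3_09314) splits by dye orientation.

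UPF1, the ATP-dependent RNA helicase at the centre of nonsense-mediated decay, differed in sign between cows. Its ratios were -0.77 and -0.40 in cow 1, 0.70 and 0.74 in cow 2, and 0.22 and 0.63 in cow 3. Cow 1 was negative and cows 2 and 3 were positive on both of their arrays, which makes the mean of 0.19 ± 0.68 a poor summary of any of the cows. Among all genes UPF1's ratio stood at percentile 0.512 in cow 1, 93.3 in cow 2 and 92.4 in cow 3.

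UPF1's control level was 10.97 and 10.73 in cow 1, 10.69 and 10.64 in cow 2, and 10.83 and 10.55 in cow 3. Its antagonist level was 10.20 and 10.33 in cow 1, 11.39 and 11.37 in cow 2, and 11.05 and 11.17 in cow 3. The antagonist levels of cow 1 lay below every control level, and those of cows 2 and 3 lay above every control level, with no antagonist level inside the control range. Raw spot means gave that picture too: 1608 to 1939 in control channels, 1298 and 1257 in cow 1's antagonist channels, and 2255 to 2643 in those of cows 2 and 3. Leaving out cow 1 gave a mean of 0.57 and leaving out cow 2 a mean of -0.080.

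UPF2, the adaptor between UPF1 and UPF3B, gave -0.12 and 0.23 in cow 1, -0.37 and 0.0074 in cow 2, and 0.045 and 0.47 in cow 3. The mean was 0.045 ± 0.22, and in every cow the array with antagonist in Cy5 gave the higher value. By orientation, the mean was -0.15 over 3 arrays whose control RNA carried Cy5 and 0.24 over the other 3. UPF2's levels ranged from 9.94 to 10.77 in control and from 10.11 to 10.85 in antagonist channels, which overlapped almost fully.

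UPF3B, the protein through which the decay machinery meets the exon junction complex, gave 0.031 and -0.060 in cow 1, 0.42 and 0.19 in cow 2, and 0.39 and 0.14 in cow 3 on its brightest probe. Its mean of 0.19 ± 0.17 came from cows 2 and 3, with cow 1 near 0. Levels ranged from 9.03 to 9.24 in control and from 9.18 to 9.60 in antagonist channels, overlapping through cow 1. A second, dimmer probe gave 0.027 ± 0.033, with 0.31, 0.24 and 0.29 where control RNA carried Cy5 and -0.26, -0.26 and -0.17 on the other arrays. The third probe exceeded background in none of its readings and was not tested.

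SMG1, the kinase that phosphorylates UPF1, had 1 probe, which exceeded background in 5 of 6 readings of either condition. It gave -0.081 and -0.077 in cow 1, -0.036 and 0.042 in cow 2, and 0.041 and 0.17 in cow 3, a mean of 0.0096 ± 0.092. Raw spot means of 176 to 271 in antagonist and 190 to 215 in control channels lay around the limits of 170 to 247, so that background compresses any ratio this probe could show.

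**Figure D2:**
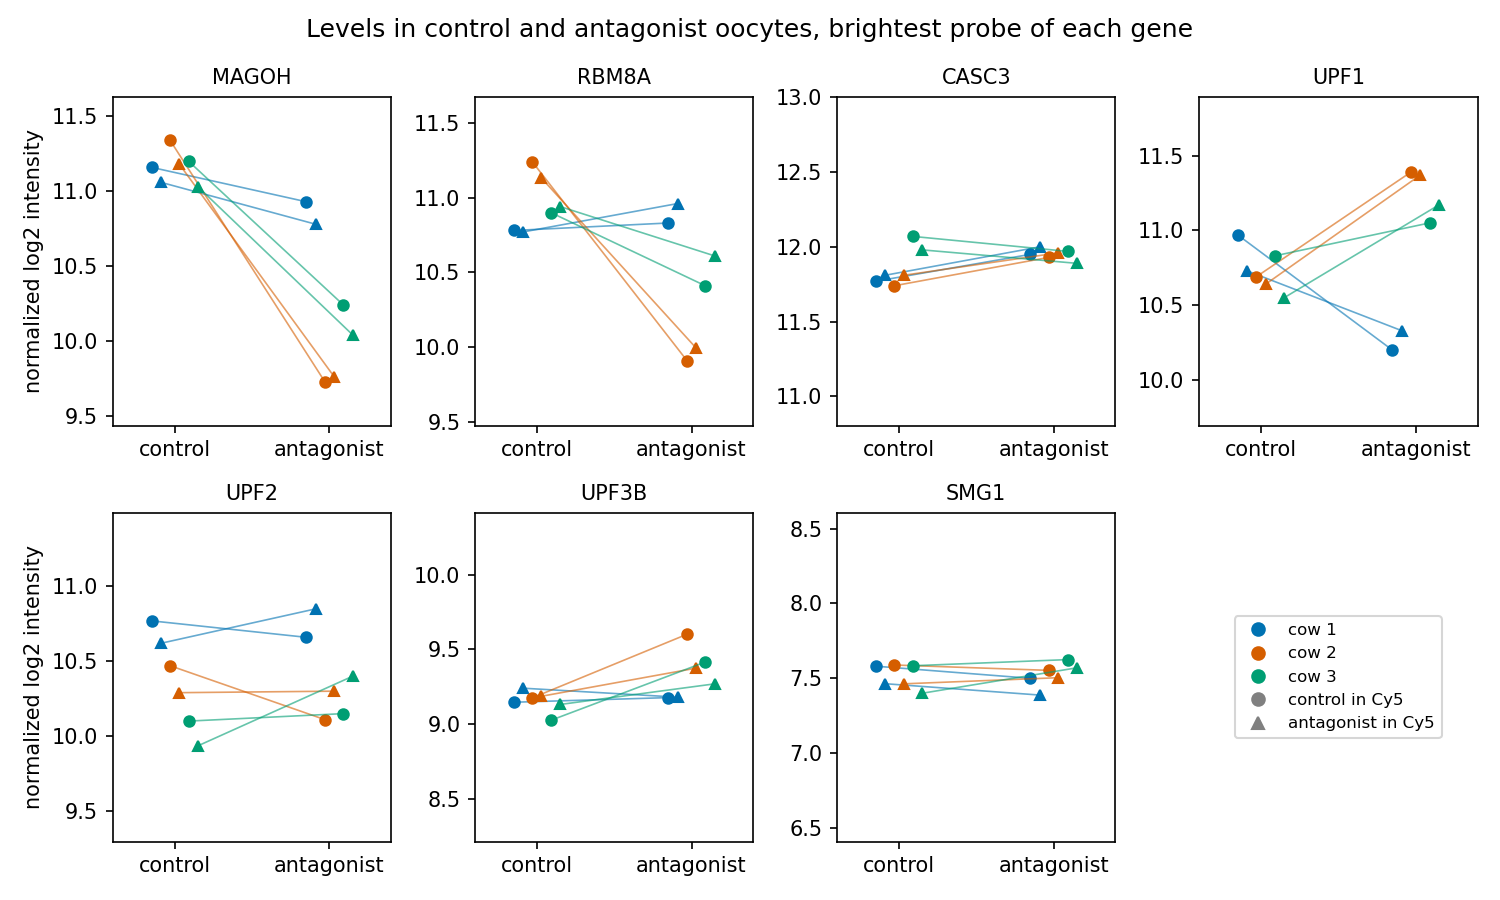
Normalized log2 intensity (vertical axis, each panel spanning the same height) of the brightest probe of each gene in control and antagonist channels; colours mark cows, symbols the dye orientation, and a line joins both channels of 1 array. MAGOH's antagonist levels all lie below its control levels, UPF1's lie below in cow 1 and above in cows 2 and 3, and SMG1's stay between 7.39 and 7.63.

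Over the 7 genes the median of the mean ratios was 0.045, against 0.0044 for all 12312 genes. The cows' medians over the 7 were -0.015, 0.0027 and 0.11. MAGOH's ratio was negative in all 3 cows, as were those of 17.1% of all genes (6.07% were negative on all 6 arrays); none of the 7 was positive in all 3 cows, against 20.7% of genes, and the other 6 had mixed signs. At an uncorrected p under 0.05 with 1.5-fold, 1 of the 7, MAGOH, was called lower, against 0.601% of all genes, and none was called higher, against 2.76%; since MAGOH's value led to the set, nothing is read from this count. MAGOH was not called without cow 2 (mean -0.62) or without cow 3 (mean -0.89), and without cow 1 its mean was -1.25. RBM8A was called lower as well without cow 1 (mean -0.82) and on the 4 arrays that share a slide number (-0.87). In these settings 1046 and 1017 of 32527 probes were called lower, against 163 in the main setting, and nothing is read from RBM8A's calls. On those 4 arrays MAGOH's ratio was -1.26, and with slide as a block over all 6 arrays it was -0.998.

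**Figure D3:**
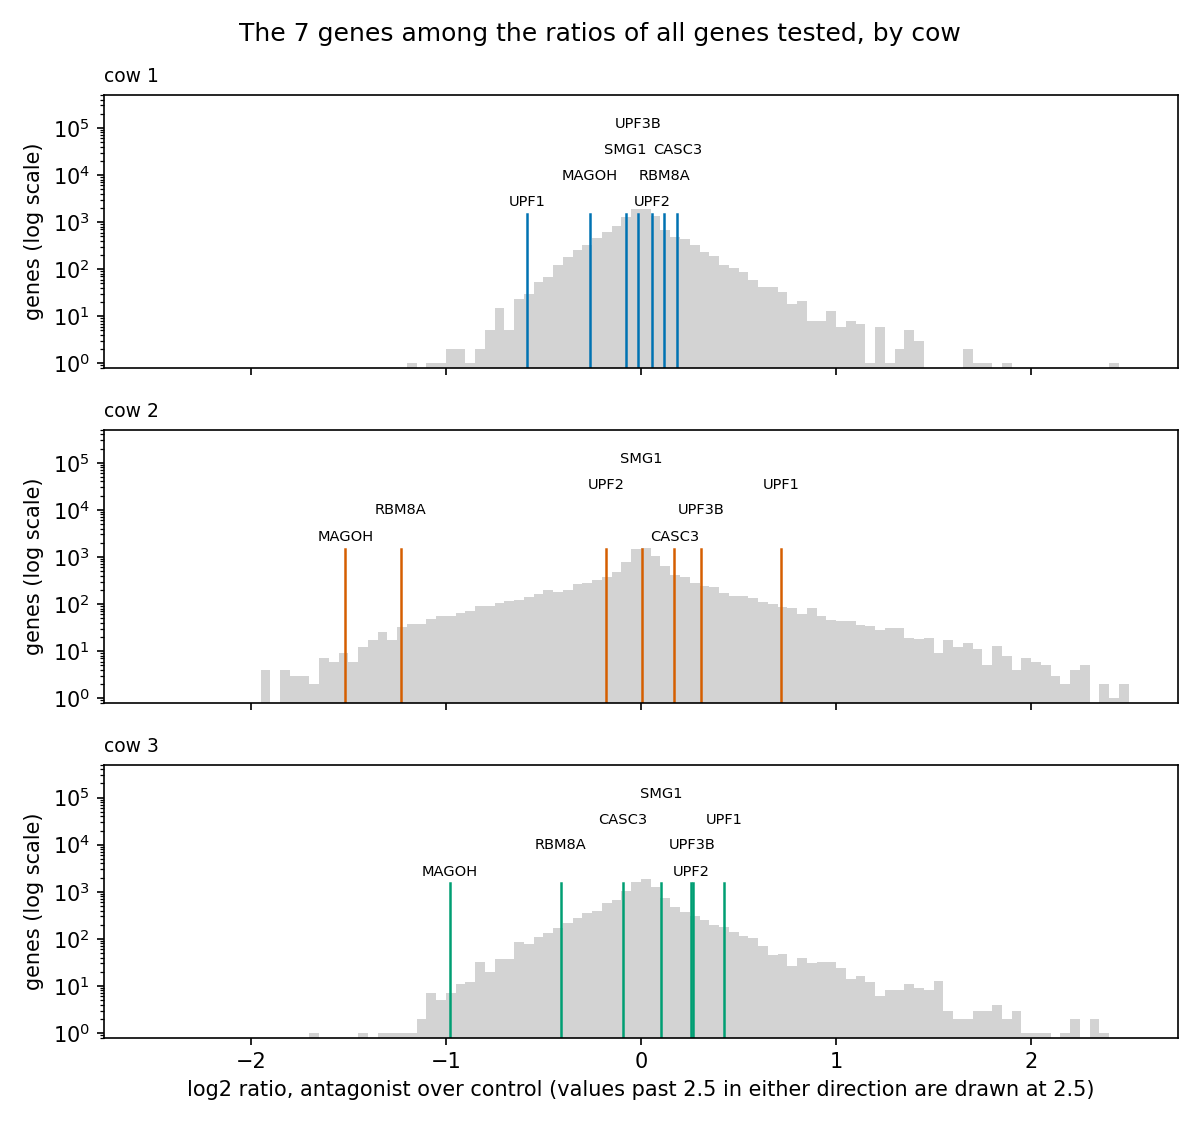
Number of genes (vertical axis, log scale) by ratio of antagonist to control (log2, horizontal axis) in each cow, grey, for all 12312 genes tested, with coloured lines at the 7 genes. UPF1 is the lowest of the 7 in cow 1 and the highest in cows 2 and 3, and the distribution of cow 2 (SD 0.485) is wider than that of cow 1 (SD 0.227).

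Whether the cows' ratios differ was tested for the 6 genes other than MAGOH, with limma's F-test in a fit of the 6 arrays that modelled both cow and dye. Such a test sets the cows against the technical error between a cow's 2 arrays. Since each cow gave 1 RNA of each condition, it cannot tell an animal's response from differences between single collections or amplifications. The set of 7 genes was chosen with earlier results of these data known, so the p-values of the other 6 are given as a description. The cows differed for 5 of these 6 genes (adjusted p under 0.05 over all probes), where 54.5% of all genes did; such differences are common on these arrays and the count is not read as particular to the 5. By probe, 8 of 11 tested probes of the 7 genes differed between cows, against 47.4% of all probes. MAGOH's probe is among the 8, and since the gene was chosen from these ratios nothing is read from its result.

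RBM8A and UPF1 had the largest of these differences. For RBM8A, cow 2's ratio minus cow 1's was -1.35 ± 0.0609 (SE; limma adjusted p = 5.4e-07), and the second probe gave -1.54 (limma adjusted p = 5e-07). For UPF1, cow 2's ratio lay 1.30 ± 0.091 above cow 1's (limma adjusted p = 3.8e-06), and cow 3's lay 1.01 above it (limma adjusted p = 6.1e-05). Between cows 2 and 3, RBM8A differed by 0.82 (limma adjusted p = 3.8e-05) and UPF1 by -0.29 (limma adjusted p = 0.038). The cows thus differed in opposite directions in both genes: RBM8A's ratio was lower in cow 2 than in cow 1 and UPF1's was higher, each by more than the error between arrays.

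The differences of the other genes were smaller. UPF2 was lower in cow 2 than in cow 1 by a difference of -0.24 (limma adjusted p = 0.012) and higher in cow 3 than in cow 2 by 0.44 (limma adjusted p = 0.00081). UPF3B was higher than in cow 1 by 0.32 in cow 2 (limma adjusted p = 0.0037) and by 0.28 in cow 3 (limma adjusted p = 0.011), on its brightest probe. The dimmer UPF3B probe did not pass (F-test, limma adjusted p = 0.69), and with median centring in place of loess the brightest probe did not pass either (limma adjusted p = 0.065). CASC3 stood apart in cow 3, with a difference of -0.28 from cow 1 (limma adjusted p = 0.0065), whereas its second probe differed by 0.45 in the opposite direction (limma adjusted p = 0.00063). For SMG1 the F-test gave a limma adjusted p of 0.099. Among the 6 genes, cow 2 differed from cow 1 in 4 (49.6% of all genes), cow 3 from cow 1 in 5 (38.4%) and cow 3 from cow 2 in 4 (35.2%).

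Ratios of several probes differed with the dye orientation. The dye term, which is positive where arrays with antagonist in Cy5 gave the higher ratio, passed an adjusted p of 0.05 for 4 of 7 genes, RBM8A, UPF1, UPF2 and UPF3B, against 64.7% of all genes, and for 8 of 11 tested probes, against 64.6% of all probes. It was 0.19 for UPF2 (limma adjusted p = 0.00019), more than 4 times UPF2's mean ratio, 0.13 for UPF1 (limma adjusted p = 0.011), 0.084 for RBM8A (limma adjusted p = 0.015) and -0.097 for UPF3B (limma adjusted p = 0.013). For MAGOH it was 0.020 (limma adjusted p = 0.6) and for CASC3 -0.0012 (limma adjusted p = 0.97). These values are those of the brightest probes. RBM8A's second probe had a dye term of -0.29 (limma adjusted p = 2.6e-05), opposite in sign to that of its brightest probe. With median centring in place of loess, which leaves intensity-dependent dye effects in, the dye term also passed for MAGOH, at 0.17 (limma adjusted p = 0.0017), and for CASC3, at 0.22 (limma adjusted p = 8.5e-05), and did not for UPF3B. Each cow was measured in both orientations, so the dye term cancels in the means over cows. In cows 1 and 3, however, the arrays of a cow carried different inferred slide numbers. If these numbers mark slides, dye and slide cannot be told apart there. In cow 2, whose arrays share a number, control in Cy5 and antagonist in Cy5 gave RBM8A -1.33 and -1.14 and UPF1 0.70 and 0.74. Those arrays gave UPF2 -0.37 and 0.0074, and UPF3B 0.42 and 0.19.

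The spread of levels between cows was larger under antagonist than in control oocytes for 5 of the 7 genes, MAGOH, RBM8A, UPF1, UPF3B and SMG1. The same held for 63.5% of all genes, whose median SD over cows was 0.13 under antagonist and 0.099 in control. UPF1's SD was 0.58 under antagonist and 0.10 in control, a ratio of SDs higher than in 94.8% of genes, and MAGOH's (0.56 and 0.083) was higher than in 96.2%. MAGOH was chosen from these ratios, so nothing is read from its rank. SMG1, whose probe lay near background, also stood at percentile 91.2, with SDs of only 0.077 and 0.019. CASC3 went the other way, with an SD of 0.025 under antagonist and 0.14 in control, which put its ratio of SDs at percentile 1.70. With 3 cows a condition these SDs are themselves imprecise, and the difference in spread was not tested.

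The other genes of the pathway were examined in 4 lists of known members, with calls at an uncorrected p under 0.05 and 1.5-fold. Of 13 exon junction complex genes and cofactors, 12 were tested (not ACIN1) and none was called; 7 had mean ratios below 0 and 5 above, with a median of -0.049. The lowest was CWC22, which brings EIF4A3 to the spliceosome, at -0.41 ± 0.26, with -0.65 on its second tested probe. The highest was PYM1 (WIBG on the array), which takes the complex off translated mRNA, at 0.48 ± 0.51, with -0.073 in cow 1, 0.92 in cow 2 and 0.60 in cow 3. PYM1 thus had cow 1 lowest and cow 2 highest, an order that 27.1% of all genes share and 1 of these 12 does.

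Of 16 further nonsense-mediated decay factors, 13 were tested, 1 was called higher and none lower, with a median of 0.048; over all genes 2.76% were called higher and 0.601% lower. The 1 called was SMG9, a subunit of the SMG1 kinase complex, at 0.75 ± 0.52, with 0.26 in cow 1, 1.29 in cow 2 and 0.70 in cow 3 on its only probe. SMG9's ratio was positive on all 6 arrays, whereas SMG1's own lay within 0.17 of 0 on each. UPF3A, a relative of UPF3B that stands in both of these lists, had 0.12 ± 0.10.

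Of 16 decapping and decay enzymes all were tested and none was called, with a median of 0.010. LSM1, a subunit of the ring that promotes decapping, was lowest at -0.54 ± 0.40, and its other 2 probes, too dim to be tested, gave 0.034 and -0.016. PAN2, a deadenylase subunit, was highest at 0.34 ± 0.64, with -0.36 in cow 1, 0.88 in cow 2 and 0.49 in cow 3. Of 11 transcripts known as targets of nonsense-mediated decay in human cells, 2 were called higher and none lower, and the median was 0.030. With 11 genes and 2.76% of all genes called higher, nothing particular to decay targets is read from this count. GADD45B, a stress-induced gene, had 0.96 ± 0.48 and NAT9, an acetyltransferase, had 0.60 ± 0.40, both positive on all 6 arrays. The other 9 were not called. DDIT3, a stress-induced transcription factor, had the lowest ratio at -0.45 ± 0.16 and was negative on all 6 arrays, as were 6.07% of all genes.

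**Figure D4:**
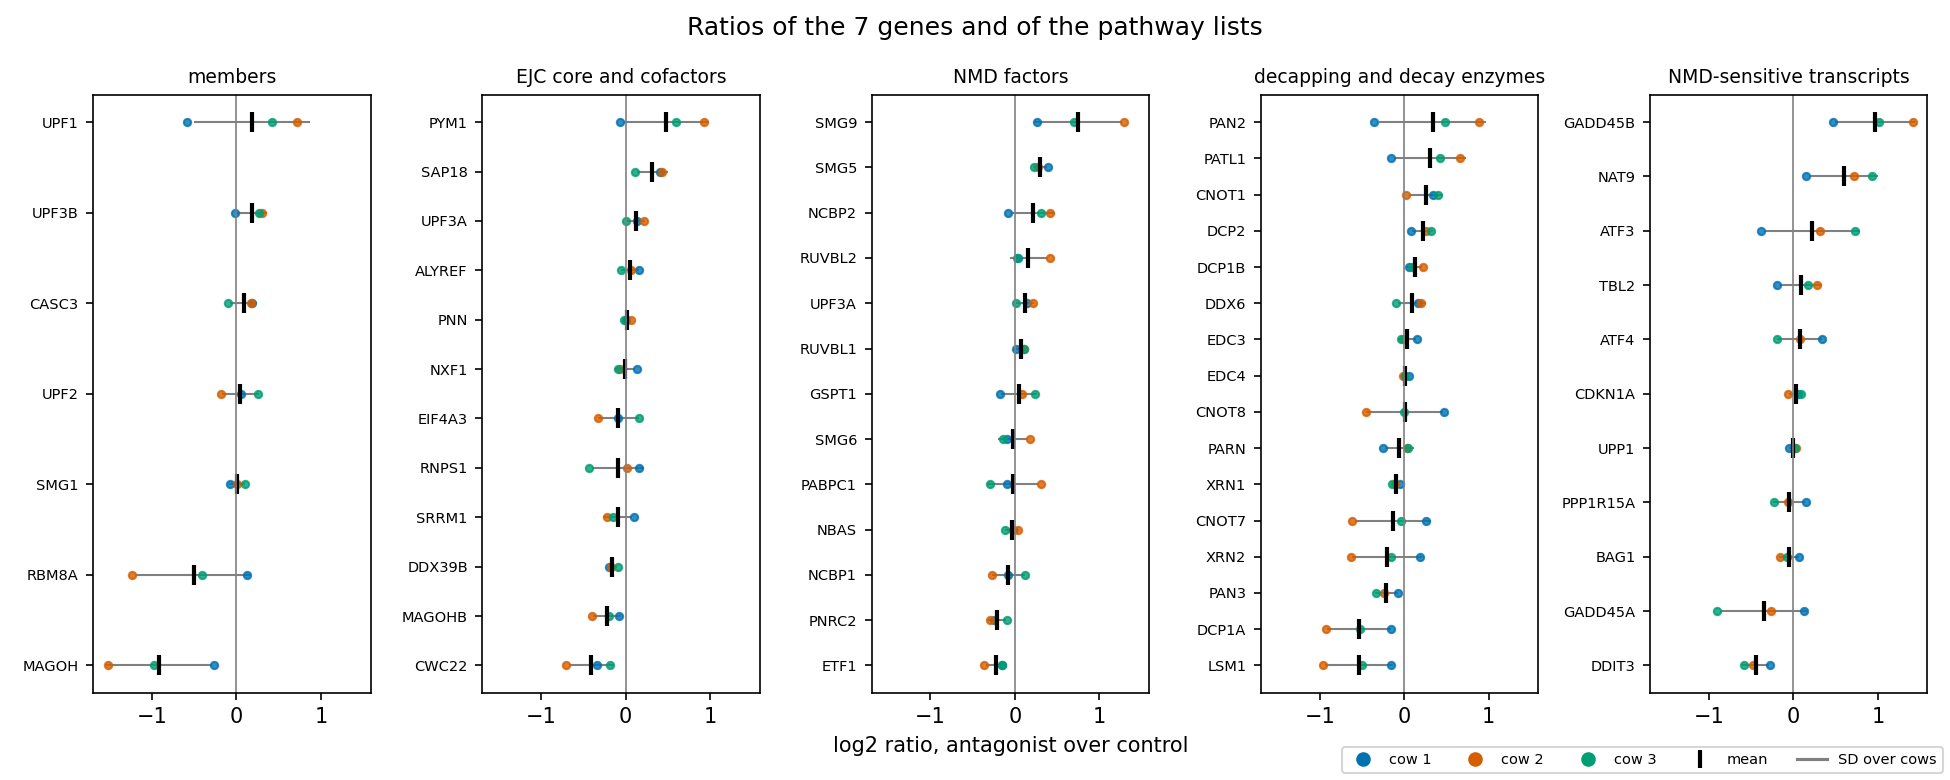
Ratio (log2, antagonist over control, horizontal axis) of the 7 genes and of 4 pathway lists, with a point per cow, a black mark at the mean and a grey line for the SD over 3 cows; brightest probe of each tested gene, sorted by mean within a panel. Each list lies on both sides of 0, with medians between -0.049 and 0.048, and MAGOH lies below every gene of the lists.

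The 5 genes whose ratios over the 6 arrays lay nearest to MAGOH's, by Euclidean distance, were JMJD1C (0.386), SFT2D1 (0.399), CHSY3 (0.407), ATF1 (0.419) and DNAJC21 (0.427), against a median distance of 2.63 over all genes. JMJD1C, a histone demethylase relative, had -0.18 in cow 1, -1.36 in cow 2 and -1.07 in cow 3. ATF1, a transcription factor of the CREB family, had -0.37, -1.39 and -0.80 in cows 1 to 3. The 6 points share 3 cows and the arrays, and likeness over them is a description.

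Markers of other follicle cells were measured beside these genes. Of 12 granulosa and cumulus markers 10 were tested (not AMH and CYP11A1) and 5 exceeded background in all 12 readings, with a summed level of 9736 to 34239 in antagonist and 10049 to 30531 in control channels. STAR had a mean log2 intensity of 14.33, against at most 10.28 for the other markers tested, so this sum depends mainly on the 1 STAR probe used. The mean ratios of the 10 markers lay below 0 in 5 and above 0 in 5, with a median of -0.0032, and none was called. Picked after their values were seen, HAS2, a hyaluronan synthase of cumulus cells, had -0.0026 in cow 1, -0.98 in cow 2 and -0.38 in cow 3. This is the order of MAGOH and RBM8A, which 2 of the 10 markers and 24.8% of all genes had. The inhibin subunits went another way, with INHA at 0.20 in cow 1, -0.25 in cow 2 and 1.399 in cow 3, and INHBA at -0.40, 0.12 and 1.48. Of 7 theca and stroma markers 5 were tested (not COL3A1 and DCN), with a sum of 2769 to 5653 in antagonist and 2499 to 3022 in control channels. Of 7 blood and endothelium markers 6 were tested (not PECAM1), with a sum of 1321 to 1934 and 1379 to 1858. The part of such cells in the ratios of the 7 genes was not tested.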

How the data were processed

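On 6 arrays from 3 cows, each cow's antagonist and control oocyte RNA were hybridised together in both dye orientations; group, cow and dye were taken from the labels. The scanner files hold raw spot intensity at 635 nm (Cy5) and 532 nm (Cy3), per the file headers. The authors' deposited table holds log2 ratios, already turned to antagonist over control, whose normalization is not given in the sources used here; it served as an alternative. The medians of its columns were 0.0010 (cow 1), -0.0029 (cow 2) and 0.0018 (cow 3) where control carried Cy5, and 0.0016, 0.0010 and 0.00049 where antagonist did. No source used here names the scanner or its software.

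Of 45220 spots 105 marked as ignored were left out. Intensities were corrected by normexp (offset 50) and normalized by loess within arrays in limma 3.58.1 (R 4.3.3), with control spots at weight 0; levels were further scaled between arrays (Aquantile). A probe was tested when its foreground exceeded the mean plus 2 SD of 152 negative controls in 3 or more of the 6 readings that either condition had. Between 55.8% and 77.5% of probes exceeded this limit in a channel, which limits the precision of dim probes, and no spot mean exceeded 41131. Each cow's 2 arrays were averaged, and limma tested the 3 resulting values against 0 (two-sided moderated test, with Benjamini-Hochberg adjustment over all probes). Cow differences and the dye term came from a fit of the 6 arrays with cow and dye. The fits were tested on simulated data. Each cow is its own control on the same array, so the pairing is part of every ratio.

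The 7 genes and the lists were chosen with earlier results of these data known. All probes of the 7 genes are named; of each pathway list, the genes called, or else those of lowest and highest ratio; and the 5 genes nearest to MAGOH. DDIT3, EIF4A3, MAGOHB, UPF3A, NLRP5, MOS, ZP3, HAS2, STAR, INHA and INHBA were added after their values were seen. Symbols come from the platform annotation, which can be old. A number in the scanner files' names was read as the slide: 4 arrays (both of cow 2, and those of cows 1 and 3 whose antagonist RNA carried Cy5) share 1 of 3 numbers. No sequence or coordinate of the probes was used here. Alternatives covered background correction, normalization, the filter, the authors' ratios, single dye orientations, slide, and each cow left out.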

Additional observations from a re-analysis of the deposited data

Results flagged for a closer look

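The dimmest tested probe of CASC3 gave ratios of opposite sign in the 2 dye orientations: 0.077, 0.44 and 0.12 with control in Cy5, and -0.27, -0.21 and -0.19 with antagonist in Cy5, with a dye term of -0.22 (limma adjusted p = 6e-04). The second probe of UPF3B did likewise, positive on all 3 arrays with control in Cy5 and negative on the other 3, with a dye term of -0.25 (limma adjusted p = 3.9e-05). Both orientations hold the same RNAs, and for either probe the mean over cows lay within 0.03 of 0.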

How the results depend on the processing

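Each gene's ratio was recomputed under 13 alternatives, and for none of the 7 did it move by more than the SD over cows. With 3 cows, leaving 1 out cannot move a mean by that much, so this limit says nothing about those alternatives. MAGOH's ratio ran from -1.26 to -0.62 and RBM8A's from -0.87 to -0.15, and UPF3B's also kept its sign. The sign turned under 2 alternatives for CASC3, 1 for UPF1, 4 for UPF2 and 2 for SMG1, none of them called where a test was run. MAGOH's uncorrected call was lost without cow 2 or cow 3, and RBM8A gained one without cow 1 and on the 4 arrays of 1 slide number. In the settings where RBM8A gained a call, 1046 and 1017 probes were called lower, against 163 in the main setting. The 7 genes' median was -0.026 with median centring, -0.025 on the arrays with control in Cy5 alone, and -0.038 to 0.039 with 1 cow left out. The 793 probes called without correction (79.4% of them higher) became 2269 with control in Cy5 alone, 1649 with antagonist in Cy5 alone, 2453 on the 4 arrays of 1 slide number, and 434 to 2419 with 1 cow left out: 2419 without cow 1, 434 without cow 2 and 451 without cow 3. With median centring 62.5% of calls were higher. At an adjusted p under 0.05, where no probe was called, single orientations called 109 (control in Cy5) and 186 (antagonist in Cy5), and entering the 6 arrays singly with cow as a random replicate block called 848. The counts of probes that differed between cows (15433) or by dye (21001) stayed within 1.5 times. The cause of these changes was not tested. SMG1 and the dim probes of CASC3 and UPF3B are limited by signal near background.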
